A study of Mus musculus with 7 samples.

Results

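The genes described are those for integrins, laminin chains, collagens and the other main proteins of the basement membrane. They were the 81 symbols of the count table that matched the names of numbered integrin alpha chains and Itgav, integrin beta chains, laminin alpha, beta and gamma chains, collagen chains, Nid1, Nid2, Hspg2, Agrn, Dag1 and Fn1, out of 24552 symbols in all. Alpha chains whose names carry other letters, such as Itgam and Itga2b, are outside this set. Expression was measured in cholangiocytes, which line the bile ducts, after sorting from mouse liver by the surface protein EpCAM. All animals were of the Foxp3GFPDTR genotype and were fed DDC, an agent of bile duct injury, for 10 days. In that genotype the receptor for diphtheria toxin is made under Foxp3, the defining factor of regulatory T cells, so the toxin is aimed at those cells and not at the epithelium. One group received intraperitoneal saline (PBS, 4 libraries) and the other 1 µg/kg of diphtheria toxin (DT, 3 libraries), both repeated at intervals of 48 h. There was no group without DDC, the labels give neither age nor sex, and whether the libraries stand for different animals is not stated in them, so p-values measure only the spread among libraries, which may be technical.

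Epithelial cells rest on a basement membrane, a thin sheet built on networks of laminin and type IV collagen that nidogen, perlecan and agrin link together. Laminins are trimers of an alpha, a beta and a gamma chain, and collagens are trimers of alpha chains. Cells hold on to the sheet through integrins, pairs of an alpha and a beta chain, and through dystroglycan. In the liver, bile ducts are surrounded by such a membrane, while fibrillar collagens of scar tissue are made mostly by stellate cells and portal fibroblasts.

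Total counts per library ran from 4805018 to 6285624. Values were often 0: a gene with a mean of 100 to 200 counts in the rest of its group was at 0 in 43.5% of cases, and one with a mean of 1000 to 2000 counts in 1.17%. DT 1 had the fewest genes with reads (5419). Reads of Y-linked genes were present in PBS 1 and in all 3 DT libraries, so that their presence differed between the groups. Only 1 PBS library had them and 0 DT libraries lacked them, so no replicated comparison within libraries alike in this respect was possible. Xist, a gene read in female cells, had 630, 12089, 17627 and 10420 counts in PBS 1 to 4. In DT 1 to 3 it had 453, 0 and 0. PBS 1 and DT 1 thus held both Xist and Y-linked reads. A difference of sex between the groups cannot be told apart from the treatment. The summed share of cholangiocyte markers was 2.41% to 2.80% in PBS and 2.58% to 2.69% in DT, and 0 of 20 listed markers was without reads. Hepatocyte markers summed to 0.302% to 0.427% in PBS and 0.499% to 0.575% in DT, with 9 of the 27 markers in the table at 0 throughout.

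Of the 81 genes, 33 had no reads in any library, 48 had reads in at least 1 and 20 had reads in all 7. Levels are given as counts or as CPM, which are counts scaled to a common library total with TMM factors. The libraries read the 3′ ends of transcripts, so a count is not set by transcript length. The filter on low counts kept 31 of the 81 genes for the test, and 16 had a mean of 100 CPM or more. Together the genes made up 0.510%, 0.640%, 0.635% and 0.606% of the counts of PBS 1 to 4 and 0.396%, 0.579% and 0.555% of those of DT 1 to 3. The lowest of the 7 shares was that of DT 1, and the groups overlapped. In bulk libraries fewer cells of a type and less RNA per cell cannot be told apart.

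The comparison asks whether bile duct cells express their adhesion and matrix genes differently when Foxp3-positive cells are targeted during injury. None of the 31 tested genes passed the edgeR test at an adjusted p of 0.05, in either direction, where 0.0390% of all 7688 tested genes did. Each had an edgeR adjusted p of 1.00. By limma-voom 0 passed (0.156% of all genes did). By DESeq2 0 were higher (0.351% of all genes) and 1 was lower (1.01% of all genes), the integrin gene Itga9. Fold changes were negative for 20 and positive for 11 genes, with a median log2 fold change of -0.31, beside 3895 negative and 3793 positive and a median of -0.02 over all tested genes. With Itga9, at 0 in DT and the lowest of the 31, set at its bound the median stayed at -0.31. It could not move, since the bound is also below the median. That split depended on single libraries. Without PBS 2, 14 genes were negative and 15 positive, with a median of 0.03, and without PBS 4, 16 were negative and 13 positive, with a median of -0.07. With Y-linked reads (present or not) as a term in the fit 14 were negative and 17 positive, with a median of 0.01 beside 0.67 over all genes. That fit in effect sets the DT libraries against PBS 1 alone, the one PBS library with such reads. At an unadjusted p below 0.05, 1 gene was lower and 0 were higher, beside 2.11% and 1.39% of all tested genes.

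Agrn and Itga9 were the 2 tested genes whose libraries did not overlap between the groups, both lower in DT. Itga9, at 0 in DT, passed the filter on low counts through PBS alone, so its lack of overlap was largely set by that filter. The 2 genes are 6.45% of the 31, beside 6.31% of all tested genes, of which 2.58% were lower in DT. The count depended on single libraries. It was 6 without PBS 1 (19.4%, background 11.4%) and 4 without PBS 3 (12.9%, background 10.9%). It was 8 without DT 1 (21.6%, background 13.4%) and 6 without DT 3 (17.1%, background 12.1%). The count stayed at 2 without PBS 2, PBS 4 or DT 2 (6.9%, 6.9% and 5.88%). Each of these shares was below its background, which was 10.7% or more. Agrn and Itga9 were among the genes with no overlap each time. A gene with no overlap over all 7 libraries keeps that when 1 is left out, apart from slight changes of scaling. Their return is therefore no check.

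**Figure D1:**
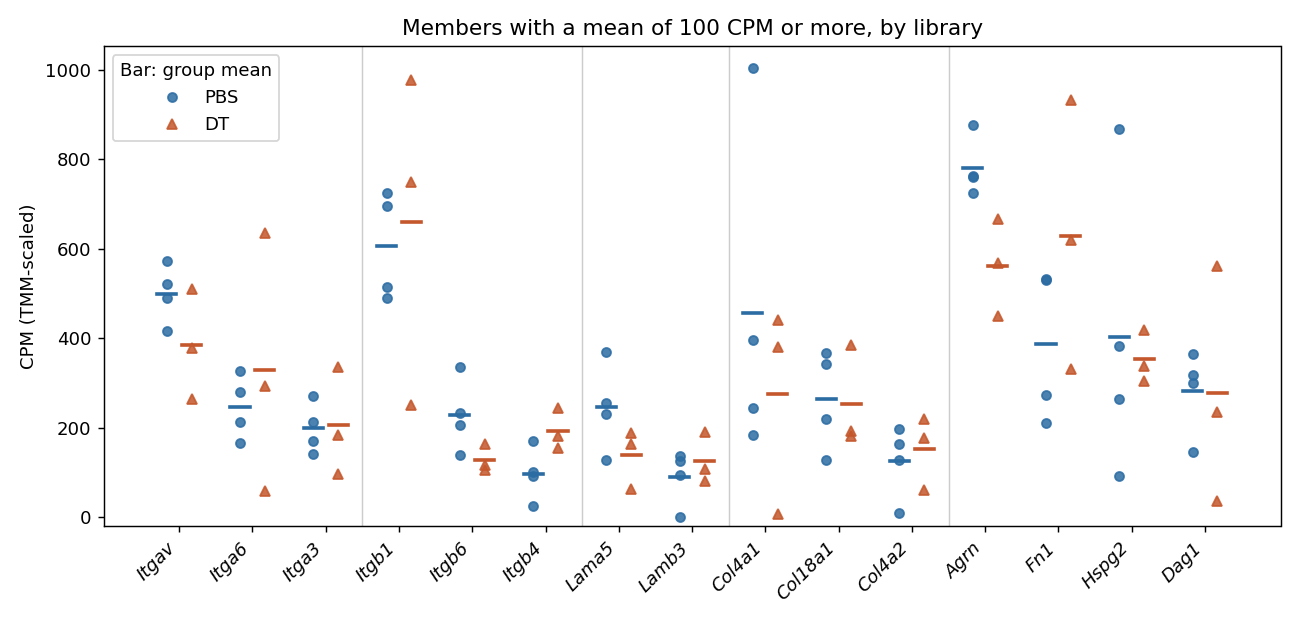
CPM of 15 of the 16 genes with a mean of 100 CPM or more, 1 point per library (circles PBS, n = 4; triangles DT, n = 3), with a bar at each group mean and grey lines between alpha integrins, beta integrins, laminins, collagens and the remaining genes. Agrn is the one gene of the 15 whose points do not overlap between the groups.

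The laminin-binding integrins are Itga3 and Itga6, whose products recognise laminin, and Itgb4, which pairs with the alpha-6 chain in hemidesmosomes, the anchors of epithelial cells. All 3 had reads in all 7 libraries and positive fold changes, and none passed the test. Itgb4 was at 171, 93.3, 26.4 and 102 CPM in PBS 1 to 4 and at 183, 245 and 154 CPM in DT 1 to 3. PBS 1 lay inside the DT range, the other PBS libraries below it. Its log2 fold change was 0.98 (SE 0.85, 95% interval -0.73 to 2.70, edgeR adjusted p = 1.00). It ran from 0.66 without PBS 3 to 1.38 without PBS 1 and was 0.18 with the Y-linked term in the fit. Itga6 was at 326, 214, 279.5 and 166 CPM in PBS and at 58.6, 635 and 294 CPM in DT. The lowest and the highest of the 7 values were both DT libraries, and the log2 fold change of 0.42 (SE 0.55) turned to -0.48 without DT 2. Itga3 was at 214, 272, 141 and 171 CPM in PBS and at 336, 96.9 and 183 CPM in DT, with a log2 fold change of 0.04 (SE 0.62) that was -0.54 without DT 1, -0.10 without PBS 3 and -0.03 without PBS 4. The groups overlapped for both genes. Itga7, another laminin-binding chain, had no reads.

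Itgb1 encodes the beta-1 chain, the common partner of the laminin, collagen and fibronectin binding alpha chains. It was at 697, 515, 489 and 725 CPM in PBS and at 252, 978 and 749.9 CPM in DT. Without DT 1, the lowest of the 7, both DT libraries were above all PBS libraries. Over all libraries the mean was 606 ± 121 CPM for PBS (SD, n = 4) and 659.8 ± 372 CPM for DT (SD, n = 3). The log2 fold change was 0.12 (SE 0.37, 95% interval -0.62 to 0.86), and -0.28 without DT 2.

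The integrins that bind ligands with an RGD sequence, among them fibronectin and latent TGF-beta, include Itgav and its partners. Itgav was at 416, 489.9, 572 and 521 CPM in PBS and at 265, 379 and 511 CPM in DT. DT 1 and DT 2 were below all PBS libraries, and DT 3 was inside the PBS range. The log2 fold change was -0.38 (SE 0.39, 95% interval -1.15 to 0.40), with -0.19 without DT 1, -0.64 without DT 3 and -0.11 with the Y-linked term. Itgb6, an epithelial chain that pairs with the alpha-v chain to activate latent TGF-beta, was at 206, 233, 139.9 and 336 CPM in PBS and at 165, 116 and 107 CPM in DT. PBS 3 was below DT 1, and the other PBS libraries were above all DT libraries. Its log2 fold change was -0.82 (SE 0.66, 95% interval -2.14 to 0.50, edgeR adjusted p = 1.00). Itgb5, a further partner of the alpha-v chain, had 0, 66, 90 and 901 counts in PBS and 0, 493 and 191 in DT. Itga5, the fibronectin receptor chain, had 246, 535, 17 and 275 counts in PBS and 917, 34 and 9 in DT. The groups overlapped for both genes. Itgb3, Itgb8 and Itga8 had no reads.

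Itga9, whose chain binds osteopontin and tenascin, had PBS counts of 69, 69, 233 and 45 and DT counts of 0, 0 and 0. Every PBS library had reads and no DT library did, so the gene was tested only through its PBS counts. Against a floor of 3 counts per library, its mean of 21.0 CPM in PBS was at least 39.5-fold higher than in DT by counting error alone. That mean was led by PBS 3, and without it the bound was at least 22.6-fold. At this level zeros are common, as given above (43.5%). The edgeR adjusted p was 1.00 (unadjusted p = 0.0355), the limma-voom adjusted p was 0.575 and the DESeq2 adjusted p was 0.0467. Over all alternatives its adjusted p ran from 0.0467 to 1.00.

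The collagen-binding integrin Itga2 had 71, 244, 6 and 138 counts in PBS and 0, 0 and 179 in DT. Itga1, which also binds collagen, had 0 counts in all PBS libraries and 0, 128 and 131 in DT. Itga10 had reads in DT 2 alone (128 counts), and Itga11 had none. These genes were thus read in some libraries of 1 or both groups and at 0 in others. Itgb2 and Itgb7, beta chains of leukocyte integrins, had reads in PBS 4 and DT 2 (689 and 344 counts for Itgb2, 91 and 172 for Itgb7). Itgb2 also had 248 counts in PBS 1 and 79 in DT 1. Macrophage and monocyte markers summed to 0.0910% to 0.197% in PBS and 0.152% to 0.181% in DT, and 4 of the 19 in the table were at 0 throughout (Adgre1, Cd163, Ccr2 and Ms4a7). Cd14 was the most read of them (4169 to 7746 counts). Without Cd14 the rest summed to 0.00658%, 0.0172%, 0.00570% and 0.117% in PBS 1 to 4 and to 0.0223%, 0.0383% and 0.0670% in DT 1 to 3. PBS 4, the library with the most Itgb2 reads, was the highest of the 7 (Lyz2 had 1522 counts there, C1qc 898), while DT 3, the next, had no Itgb2 reads. Of the T, NK and B cell markers, 15 were at 0 throughout. Ptprc, on that list, had 86 counts in PBS 4, 703 in DT 2, 1 in DT 3 and 0 elsewhere. Gzma had 821 counts in DT 1, 286 in DT 2 and 0 elsewhere. Gzmb had 195 counts in PBS 4 alone, and Cd8a had 0 or 1 in each library. PBS 1, with 248 Itgb2 counts, had no reads of these markers. The part of macrophages, monocytes and T, NK and B cells in the Itgb2 and Itgb7 values was not tested.

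**Figure D2:**
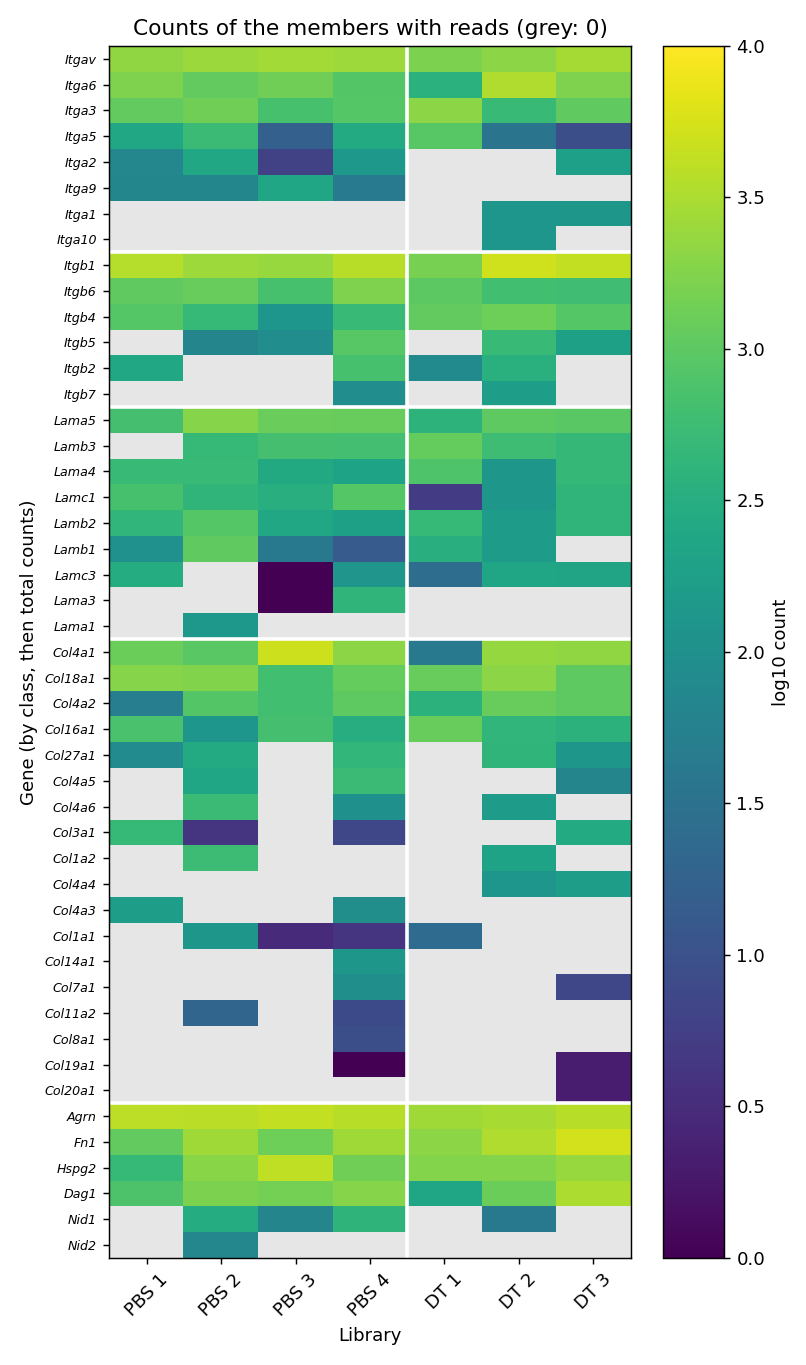
Counts of 47 of the 48 genes with reads (rows, by class and then by total counts) in the 7 libraries (columns), on a log10 colour scale with 0 in grey. The top rows of each class are filled in nearly every library, while the lower rows, among them most collagens, have reads in a few libraries of either group.

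Of the 11 laminin chains 10 had reads, 8 were tested, and 0 passed, with 3 positive and 5 negative fold changes and a median log2 fold change of -0.66. Lama5, the alpha chain of the laminins that are widespread in adult epithelial basement membranes, was at 128, 369, 255 and 230.4 CPM in PBS and at 63.5, 188 and 165 CPM in DT. PBS 1 was below DT 2 and DT 3, and the other PBS libraries were above all DT libraries. Its log2 fold change was -0.82 (SE 0.64, 95% interval -2.11 to 0.46), -0.50 without DT 1 and 0.11 with the Y-linked term. Of the chains that can complete its trimers, Lamc1 had 692, 412, 317 and 882 counts in PBS and 5, 129 and 416 in DT. Lamb1 had 106, 1055, 41 and 14 counts in PBS and 320, 158 and 0 in DT, and Lamb2 had 429, 881, 253 and 186 in PBS and 479, 165 and 419 in DT. The log2 fold changes were -1.79 for Lamc1 (SE 1.77), -1.12 for Lamb1 (SE 2.59) and -0.49 for Lamb2 (SE 1.72), each with an SE of the size of the change or larger.

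Lama3 and Lamb3 encode an alpha and a beta chain of the laminin of hemidesmosomes. Lamb3 was at 0, 94.8, 137 and 127 CPM in PBS and at 191, 108 and 81.3 CPM in DT, with a log2 fold change of 0.50 (SE 1.29). PBS 1, at 0, was the one library without Lamb3 reads. The change was 0.08 without PBS 1, 0.06 without DT 1 and 1.65 by limma-voom. With the Y-linked term, which sets DT against that 0, the unadjusted p was 0.000778 and the edgeR adjusted p 0.124, and the fitted size is no measure of the change. Lama3 had 420 counts in PBS 4, 1 in PBS 3 and 0 in the other 5 libraries, and it was not tested. The beta chain was thus read in 6 libraries and the alpha chain in 2. Lama4, an alpha chain known from vessels, had 499, 500, 269 and 206 counts in PBS and 800, 132 and 468 in DT, with overlapping groups. Lamc3 had reads in 6 libraries (1 to 303 counts). Lama1 had reads in PBS 2 alone (135 counts), and Lama2 had none.

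**Figure D3:**
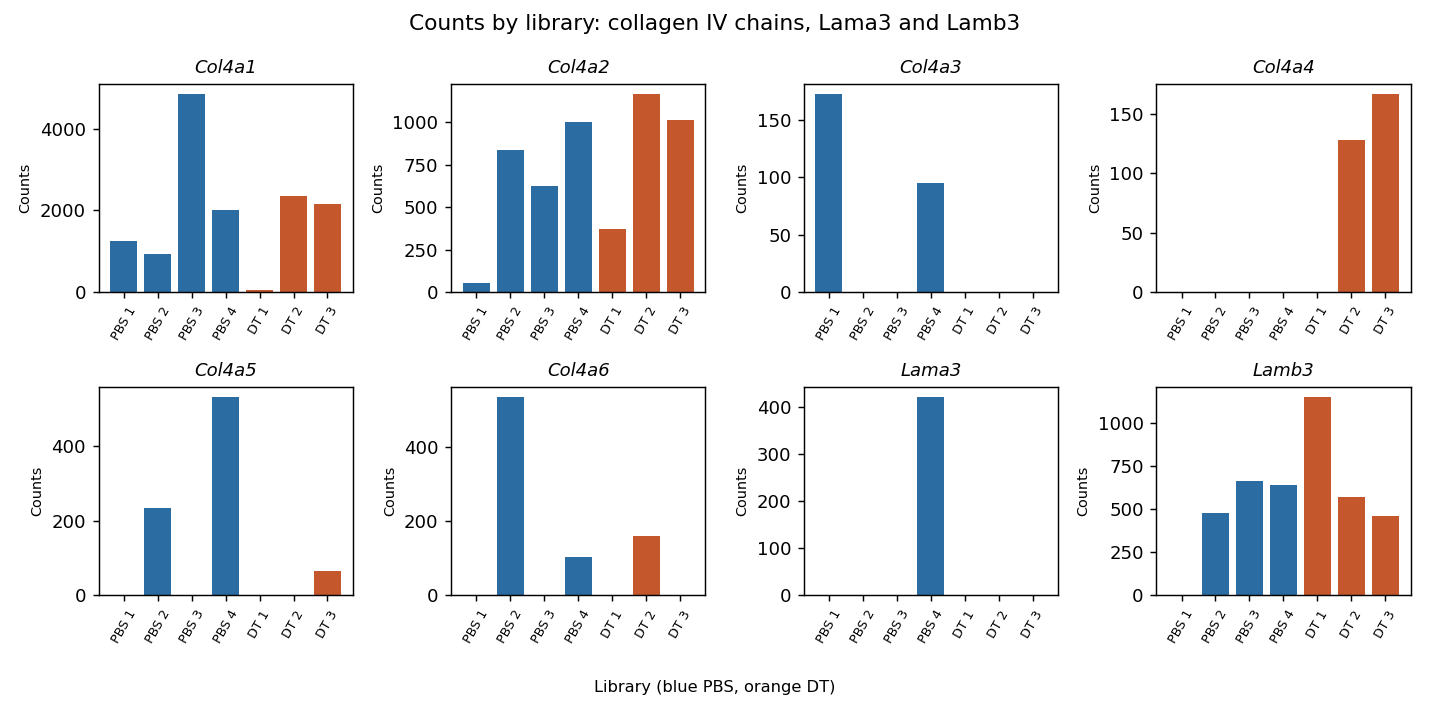
Counts per library (bars, blue PBS and orange DT, each panel with its own axis from 0) of the 6 type IV collagen chains and of Lama3 and Lamb3. Col4a1, Col4a2 and Lamb3 have reads in both groups in at least 6 libraries, and the other 5 genes in 2 or 3 libraries.

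Of 44 collagen genes, 26 had no reads in any library and 4 had reads in all 7. Those 4 were Col4a1, Col4a2, Col18a1 and Col16a1. The main network chains of type IV collagen, Col4a1 and Col4a2, lie head to head: in RefSeq (GRCm38.p6) their starts are 21 bases apart on opposite strands. Col4a1 was at 243, 185, 1003 and 396 CPM in PBS and at 6.98, 440.0 and 382 CPM in DT. PBS 3 was the highest of the 7 and DT 1 the lowest, and the log2 fold change was -0.73 (SE 1.33). Without PBS 3 it was -0.01, without DT 1 it was -0.18, and with the Y-linked term 0.18. Col4a2 was at 10.1, 165, 129 and 197 CPM in PBS and at 62.0, 219.7 and 178 CPM in DT, with a log2 fold change of 0.29 (SE 0.91) that was -0.11 without PBS 1, -0.06 without DT 2 and 0.65 without DT 1. By limma-voom it was 0.77, and with the Y-linked term 3.92 (unadjusted p = 0.0195, edgeR adjusted p = 0.665). The lowest Col4a2 value was in PBS 1, where Col4a1 was not low. The lowest Col4a1 value was in DT 1, where Col4a2 was also low (62.0 CPM, above PBS 1 alone).

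The rarer type IV chains were at or near the level where single libraries decide. Col4a3 had 173 and 95 counts in PBS 1 and PBS 4 and 0 in the other 5 libraries. Col4a4, its partner in a trimer with the alpha-5 chain, had 128 and 167 counts in DT 2 and DT 3 and 0 elsewhere. No library had reads of both. Col4a5 had reads in PBS 2, PBS 4 and DT 3 (234, 530 and 65 counts) and Col4a6 in PBS 2, PBS 4 and DT 2 (536, 103 and 160 counts). The log2 fold changes of the last pair were -3.29 (SE 3.63) and -1.65 (SE 3.40).

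Col18a1, the basement membrane collagen whose end is released as endostatin, was at 366, 342, 127 and 220.3 CPM in PBS and at 193, 384 and 182 CPM in DT. The groups covered the same range, with a log2 fold change of -0.06 (SE 0.52, 95% interval -1.12 to 1.00). This sign turned without PBS 1, PBS 2, DT 1 or DT 3 (0.13, 0.09, 0.08 and 0.12). Col16a1, a collagen that associates with fibrils, had 700, 126, 667 and 306 counts in PBS and 1182, 423 and 370 in DT, again with overlapping groups (log2 fold change 0.34, SE 1.24).

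Fibrillar collagens, the main collagens of scar tissue, were read in few libraries. Col1a1 had 0, 130, 3 and 4 counts in PBS and 25, 0 and 0 in DT. Col1a2 had 555 counts in PBS 2 and 208 in DT 2 and 0 elsewhere. Col3a1 had 473, 4, 0 and 7 counts in PBS and 0, 0 and 283 in DT. The high values of these 3 genes fell in different libraries, apart from PBS 2 for Col1a1 and Col1a2. Col27a1 was the one tested fibrillar collagen, with 86, 274, 0 and 445 counts in PBS and 0, 413 and 132 in DT. Of the 11 fibrillar collagen genes 6 had no reads, among them Col5a1 and Col5a2. Of other matrix collagens, Col6a1, Col6a2, Col6a3, Col12a1 and Col15a1 had no reads, and Col14a1 had reads in PBS 4 alone (131 counts). Of 30 stellate cell and fibroblast markers, 13 were at 0 in all 7 libraries, among them the defining genes Pdgfra, Pdgfrb, Des and Lrat. The list made up 0.159% to 0.303% of counts in PBS and 0.208% to 0.298% in DT, led by Rgs5 with a mean of 1452 CPM. Dcn, a fibroblast proteoglycan gene, had 571 counts in PBS 4 and 0 elsewhere. Endothelial markers, 12 of 20 of them at 0, made up 0% to 0.00455% in PBS and 0.000139% to 0.0181% in DT. The part of these cells in the collagen reads was not tested.

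Agrn encodes agrin, a heparan sulfate proteoglycan that binds laminin and dystroglycan. It was at 762, 760.5, 878 and 724 CPM in PBS 1 to 4 and at 449.9, 569 and 667 CPM in DT 1 to 3. Every DT library was below every PBS library, with a gap between 667 CPM in DT 3 and 724 CPM in PBS 4. The mean was 781 ± 66.8 CPM for PBS (SD, n = 4) and 562 ± 109 CPM for DT (SD, n = 3). The log2 fold change was -0.48 (SE 0.32, 95% interval -1.13 to 0.18, edgeR adjusted p = 1.00, unadjusted p = 0.148). Leaving out 1 library gave -0.62 to -0.36, and the adjusted p over all alternatives ran from 0.476 to 1.00.

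The 250 bases before the more upstream of 2 RefSeq starts of Agrn are shown because it was the one well-read gene whose groups did not overlap, beside those of Itgb6, where 1 PBS library lay among the DT values. They are from RefSeq (GRCm38.p6), another build than that of the counts, and were chosen after the values were seen. Capitals mark GC boxes (GGGCGG on either strand, overlaps counted).
Agrn, chr4:156197489-156197738, minus strand: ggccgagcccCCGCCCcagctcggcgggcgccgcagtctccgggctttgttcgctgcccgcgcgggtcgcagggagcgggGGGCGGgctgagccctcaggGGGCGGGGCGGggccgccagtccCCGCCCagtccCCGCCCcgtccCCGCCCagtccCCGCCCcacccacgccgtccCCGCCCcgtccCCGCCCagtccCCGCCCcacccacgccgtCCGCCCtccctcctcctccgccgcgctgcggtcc
Itgb6, chr2:60722604-60722853, minus strand: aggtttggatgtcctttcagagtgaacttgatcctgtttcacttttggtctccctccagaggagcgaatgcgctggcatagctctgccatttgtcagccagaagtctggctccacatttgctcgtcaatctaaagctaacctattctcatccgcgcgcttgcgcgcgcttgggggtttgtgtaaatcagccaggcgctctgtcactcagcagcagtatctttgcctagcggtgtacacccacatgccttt
The Agrn stretch held 12 GC boxes and was 83.6% G and C, and that of Itgb6 held 0 and was 52% G and C. The stretch before the other start of Agrn held 2 boxes, and that before the other start of Itgb6 held 0. At least 12 boxes were found in 5 of 32851 promoter windows of this length (0.015%). At least 1 was found in 36 of 67 windows of the set (53.7%), which covered 59 of the 81 genes, and in 32.7% of all windows. An AP-1 site (TGAGTCA) was in 1 of the 67 windows (1.5%, against 4.5% of all), and a TEAD site (GGAATG) in 8 (11.9%, against 12.6%), both searched on either strand. A match is a string of letters and no evidence of binding.

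Fn1, which encodes fibronectin, a ligand of RGD-binding integrins, was at 211, 533, 273 and 529.6 CPM in PBS and at 332, 620.1 and 932 CPM in DT. DT 2 and DT 3 were above all PBS libraries, and DT 1 was inside the PBS range. Its log2 fold change was 0.70 (SE 0.40, 95% interval -0.10 to 1.5, unadjusted p = 0.0850, edgeR adjusted p = 1.00). It was 0.30 without DT 3, 0.98 without DT 1 (unadjusted p = 0.0179, edgeR adjusted p = 1.00) and 1.57 with the Y-linked term (unadjusted p = 0.0217, edgeR adjusted p = 0.697). By limma-voom it was 0.80 (unadjusted p = 0.0382, limma-voom adjusted p = 0.690). Over all alternatives the adjusted p ran from 0.521 to 1.00. Hepatocytes also make fibronectin, and the share of hepatocyte markers was higher in every DT library than in every PBS library, as given above. Their part in the Fn1 values was not tested.

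Hspg2, which encodes the proteoglycan perlecan, was at 92.2, 383, 868 and 265 CPM in PBS and at 304, 338 and 418 CPM in DT. The PBS libraries held both the lowest and the highest value, and the log2 fold change of -0.19 (SE 0.51) was 0.51 without PBS 3. With the Y-linked term in the fit it was 1.94 (edgeR adjusted p = 0.585). Dag1, which encodes dystroglycan, the laminin and agrin receptor, was at 146, 319, 301 and 365 CPM in PBS and at 36.7, 235 and 562 CPM in DT. The DT libraries held both extremes, and the log2 fold change of -0.03 (SE 0.61) ran from -1.06 without DT 3 to 0.47 without DT 1 and was also positive without PBS 2, PBS 4 or DT 2 (0.04, 0.12 and 0.09). The nidogens, which link laminin to collagen IV, were sparse. Nid1 had 0, 299, 66 and 402 counts in PBS and 0, 42 and 0 in DT (log2 fold change -3.84, SE 3.66), and Nid2 had 71 counts in PBS 2 alone.

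**Figure D4:**
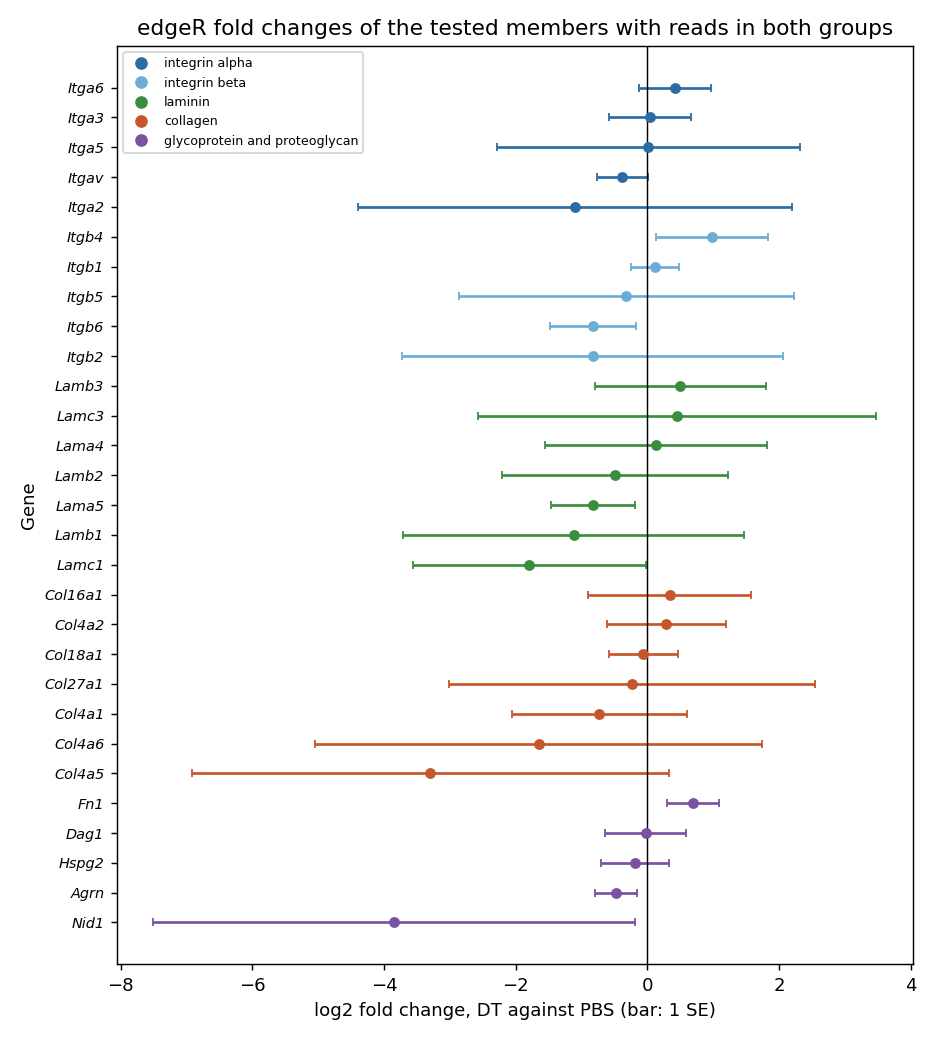
Log2 fold change of DT against PBS by edgeR for 29 of the 30 tested genes with reads in both groups, coloured by class, with bars of 1 SE. The widest bars are those of Nid1, Col4a5 and Col4a6 (SE 3.66, 3.63 and 3.40), and no gene shown passed the test.

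DT 1 was the lowest of the 7 libraries for 7 of the 16 genes with a mean of 100 CPM or more, and PBS 1 for 4. Among all 2153 genes at that level DT 1 was the lowest for 25.6% and PBS 1 for 18.3%. Within the 48 genes with reads, 113 of 336 values were 0 (33.6%) and 17 were between 1 and 19 counts (5.06%), beside 39.5% and 4.95% for all genes with reads. Between 200 and 500 counts in the other libraries of the group, 13 of 54 values of the set were 0, and 25.6% of those of all genes.

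Other genes of cell adhesion to matrix, in 5 lists, had 0 members past the edgeR test in either direction. Of the 23 tested integrin adaptors, the proteins that tie integrins to actin, 8 were positive and 15 negative, with a median log2 fold change of -0.10. Actn1, Actn4 and Flna, which encode actin cross-linkers, had log2 fold changes of 0.24, -0.10 and -0.43. Zyx, the gene of the focal adhesion protein zyxin, had 2552, 1135, 870 and 1790 counts in PBS and 289, 422 and 834 in DT, with no overlap (log2 fold change -1.77, SE 0.63, edgeR adjusted p = 1.00, DESeq2 adjusted p = 0.0461). Of the 15 tested hemidesmosome and other matrix receptor genes 8 were positive and 7 negative (median 0.17), and Cd44, Ddr1, Cd47 and Sdc4 had log2 fold changes of -0.29, 0.29, 0.18 and 0.36.

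Of the 15 tested genes listed for collagen and matrix maturation 8 were positive and 7 negative, with a median log2 fold change of 0.01. The positive genes include Col4a3bp (log2 fold change 0.33), although it encodes a ceramide transfer protein. Tgm2, a transglutaminase that cross-links matrix proteins, had a mean of 609 ± 160.5 CPM for PBS and 1166 ± 272 CPM for DT with no overlap (log2 fold change 0.94, SE 0.31, edgeR adjusted p = 1.00), while Sparc, P4hb and Colgalt1 had 0.07, 1.02 and 1.10. Of the 22 tested matrix proteases and inhibitors 8 were positive and 14 negative (median -0.26), and Plaur, Plat, Ctsb and Adamts1 had 0.16, -0.25, -0.35 and -0.71. Of the 19 tested matricellular genes and other integrin ligands 12 were positive and 7 negative (median 0.31). The positive genes include Fgb and Fgg (log2 fold changes 1.32 and 1.01), which are also on the list of hepatocyte markers. The part of hepatocytes, whose marker share was higher in DT, was not tested. Spp1, Cyr61, Ctgf and Tinagl1 had log2 fold changes of 0.31, -0.56, -1.03 and 0.44, of which Ctgf had an edgeR adjusted p of 0.375 and passed by DESeq2 (DESeq2 adjusted p = 0.00506) and in the edgeR fit with no filter on low counts (edgeR adjusted p = 0.0114).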

How the data were processed

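The authors deposited raw read counts per gene symbol from 7 libraries made with a QuantSeq FWD kit, which reads 3′ ends, per the labels' protocols. The submitters' processing notes name the build mm9. The aligner, the counter, the strand setting and any molecular identifiers were not given in the sources used here. In a GRCm38 annotation (GENCODE M21), the last 1000 bases of 1 of the 48 genes with reads, Nid2, overlapped exons of another gene, on the opposite strand.

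Sample titles gave the groups and the replicate numbers. Counts were scaled by TMM and filtered by filterByExpr, and DT was compared with PBS by the quasi-likelihood F test of edgeR 4.0.16 (R 4.3.3), two-sided, with robust dispersion and Benjamini-Hochberg adjustment over 7688 genes. An SE is the fold change divided by the root of F, and intervals use that SE. Floors of 3 counts per library cover counting error only, since PCR reads are not independent molecules. Genes given in full had a mean of 100 CPM or more, no overlap between groups, a call by any tool, or a whole group at 0 beside a mean of 50 counts or more. Up to 4 best-read genes of each list were named, and other genes were chosen after their values were seen. Of the genes this rule names, 2 are not reported here, and they remain in the counts and medians over sets. The members, lists and rules were chosen with earlier results of these data known. Alternatives were other factors and filters, the replicate number as a block, a Y-linked covariate, limma-voom 3.58.1, DESeq2 1.42.0 and leaving out each library. The scripts were tested on simulated data. Replicates differed by more than sampling noise in all pairs. Figures were drawn with matplotlib 3.10.9.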

Additional observations from a re-analysis of the deposited data

Results flagged for a closer look

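Among the 18 genes whose 4 PBS libraries were searched for a value far from the others, 2 stood apart. The number expected by chance, 0.9, holds for normally spread values. Counts with frequent zeros are not spread in that way, so the 2 cannot be judged against it. For Itga9 PBS 3 (233 counts) stood away from the next library by 0.879 of the spread from lowest to highest. For Lama3 this ratio was 0.998, with 420 counts in PBS 4 against 0, 0 and 1 in PBS 1 to 3. Lama3 was searched only because PBS 4 lifted its PBS mean, which was 0.0687 CPM without that library. Its outcome was thus fixed by the rule that named it.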

How the results depend on the processing

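RLE and upper quartile factors changed no count by over 1.5 times and no sign of the 16 tested genes given in full. Genes called over the whole table numbered 0 higher and 3 lower. They were 1 and 7 with no filter on low counts, 6 and 6 by limma-voom, 27 and 78 by DESeq2, and 6 and 6 with the replicate number as a block. The Y-linked covariate gave 23 higher, and keeping genes from an average log2 CPM of 8 upward gave 5 lower. Without 1 of the libraries, 0 to 1 were higher and 1 to 4 lower. Of the integrin and matrix genes 0 passed as higher in any setting, and 1 as lower by DESeq2 (Itga9). The 5 related lists named 172 genes, of which the main fit tested 23, 15, 15, 22 and 19 by list. With no filter 1 was lower, beside 7 of all 11487 genes. By DESeq2 3 were lower, beside 1.01% of all tested genes. When 1 library was left out 0 to 1 was lower (Ltbp3, without DT 3, beside 4 of all 8549 genes). The number with no overlap was 1 with the filter at 8 and 2 to 8 when 1 library was left out.

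With the replicate block the log2 fold changes of Col4a2, Lamb3 and Col4a1 were 1.13, 1.33 and -1.61. The sign turned with the block for Hspg2 (0.14), Itga3 (-0.13) and Itga6 (-0.22). Deviations from the group means correlated at -0.0490, -0.0122 and 0.0259 between same-numbered libraries. Those between libraries of unlike number ran from -0.0857 to 0.0640. No pairing by number was seen, but so few libraries cannot exclude it. The sign turned by limma-voom for Col18a1 (0.049), Hspg2 (0.25) and Itga3 (-0.40), and with the Y-linked covariate for Col4a1 (0.18), Dag1 (0.93), Hspg2 (1.94), Itga3 (-0.058), Itgb1 (-0.078) and Lama5 (0.11). When 1 library was left out, Col18a1 ran from -0.49 to 0.13, Col4a2 from -0.11 to 0.65, Dag1 from -1.06 to 0.47, Hspg2 from -0.53 to 0.51, Itga3 from -0.54 to 0.38, Itga6 from -0.48 to 0.89 and Itgb1 from -0.28 to 0.49. Beyond fewer genes or libraries tested, the cause was not tested. Genes under about 1000 counts are limited by frequent zeros.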
